A study of Mus musculus with 6 samples.

Results

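All but 3 of the 58 genes described here belong to the machinery that transcribes ribosomal RNA and builds ribosomes in the nucleolus, measured in mouse primary lung fibroblasts with and without recombinant mouse CIRBP. Members were chosen by gene symbol and biotype from the 55487 genes of the deposited table: protein-coding genes of the Nop, Utp, Rrp and Nol series, the Polr1 subunits, Imp3 and Imp4, and Ncl, Npm1, Fbl, Dkc1, Nhp2, Gar1, Pno1, Bop1, Pes1, Wdr12, Wdr43, Nolc1, Rrn3 and Ubtf. The rule uses no measured level, but the set was proposed with results of these libraries known, so counts over the 58 are a description and nothing is read from them as support. All 58 had enough counts to be tested.

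The study has 6 RNA-seq libraries of primary lung fibroblasts from wild-type C57BL/6 mice, 3 given PBS and 3 given rmCIRBP at 1 µg/mL. CIRBP, the cold-inducible RNA-binding protein, is known outside cells as an inflammatory signal, and the series title places it in fibroblast activation through TLR2/4 and IL-6. Cells of both groups were grown in 10% serum, held in 0.1% serum for 24 h and then treated for 24 h, so serum starvation is shared by the PBS cells. The labels name no age, and they do not say whether the 3 libraries of a group came from separate animals or cultures, so p-values measure the spread between these libraries, which may be technical. Libraries held 12105584 to 14262375 counts. The fibroblast markers summed to 32742 to 39271 CPM (counts per 1000000 counts of the TMM-scaled library), although Lum was under 3 CPM in every library. Summed neutrophil, lymphocyte and epithelial markers reached at most 1.69, 1.17 and 6.24 CPM, and Krt8, S100a9, Ly6g and Cd3e were at 0 in all 6 libraries. Summed macrophage markers ranged from 115 to 149.6 CPM with PBS and from 67.7 to 128 CPM with rmCIRBP. Endothelial markers ranged from 19.4 to 26.7 CPM with PBS and from 5.92 to 8.22 CPM with rmCIRBP, and mesothelial markers from 8.37 to 13.7 CPM and from 2.63 to 5.73 CPM. Some markers changed with rmCIRBP by edgeR: Adgre1 (macrophage), from 1.63 ± 0.221 to 8.96 ± 3.29 CPM, and Dcn (fibroblast) rose, while Mrc1 (macrophage), Kdr (endothelial, to 0.0896 of its PBS level), Tek (endothelial), Upk3b (mesothelial), Cspg4 (pericyte), Thy1 and Vim fell. Their part in the results was not tested. Summed smooth muscle and pericyte markers were highest in rmCIRBP 2 and lowest in rmCIRBP 3. Of the 7 markers, 4 were highest in rmCIRBP 2, while Cspg4 was highest in PBS 3, Rgs5 in rmCIRBP 1 and Mcam in PBS 1. Among the controls PBS 1 had the highest sums of smooth muscle and of proliferation markers, so the member counts are also given without single libraries.

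RNA polymerase I transcribes the ribosomal DNA into a long precursor RNA, starting at promoters marked by Ubtf, to which Rrn3 brings the polymerase. Small nucleolar RNAs of the box C/D and box H/ACA classes guide methylation and pseudouridylation of the precursor, and U3, a box C/D member, guides the cuts that release the small subunit RNA. Assembly factors then fold and trim the precursors of the small (40S) and large (60S) subunits before export. Output of this pathway is known to follow growth signals such as serum, partly through Myc, which binds the E-box CACGTG as a dimer with Max.

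The E-box is shown first, because a larger share of these promoters than of others holds it. RefSeq windows from 250 bases before to 50 after a gene's start (GRCm38.p6) were found for 47 of the 58 members. CACGTG, which reads the same on both strands, was present in 13 of the 47 (27.7%), against 2187 of 27025 genes in the table (8.09%) and 1168 of 10190 protein-coding genes tested here (11.5%). The GC box GGGCGG, searched on both strands, was present in 33 of the 47 (70.2%), close to the 68.8% of protein-coding genes tested. Windows of 30 bases around the E-box follow for the 10 of the 13 members whose values did not overlap between the groups. They run 5′ to 3′ on the gene's strand, with CACGTG in capitals. In the edgeR fit of all libraries Pno1 and Utp4 were called higher and the other 8 of the 10 were not. All 10 were higher with rmCIRBP, but they were picked for not overlapping. Of all 58 members 30 were likewise higher without overlap and 3 lower (17.5% and 17.1% of all genes tested). The direction of the 10 is therefore not a result about the E-box. Rrp7a, Utp14b and Utp25 also hold an E-box, but they overlapped between the groups and are not printed.
Utp4, chr8:106893643-106893672, + strand: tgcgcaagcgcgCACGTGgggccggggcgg
Pno1, chr11:17211540-17211569, − strand: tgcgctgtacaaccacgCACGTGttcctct
Nop2, chr6:125131811-125131840, + strand: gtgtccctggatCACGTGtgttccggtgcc
Wdr43, chr17:71616220-71616249, + strand: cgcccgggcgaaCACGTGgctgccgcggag
Utp18, chr11:93885769-93885798, − strand: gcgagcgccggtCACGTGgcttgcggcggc
Nol11, chr11:107189407-107189436, − strand: cttgagcgttcgCACGTGgtctagactcca
Pes1, chr11:3963965-3963994, + strand: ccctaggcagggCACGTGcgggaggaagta
Imp4, chr1:34439696-34439725, + strand: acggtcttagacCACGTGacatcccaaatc
Utp20, chr10:88826765-88826794, − strand: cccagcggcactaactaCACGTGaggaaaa
Rrn3 holds 2 in its 250 bases before the start, chr16:13780449-13780698, + strand: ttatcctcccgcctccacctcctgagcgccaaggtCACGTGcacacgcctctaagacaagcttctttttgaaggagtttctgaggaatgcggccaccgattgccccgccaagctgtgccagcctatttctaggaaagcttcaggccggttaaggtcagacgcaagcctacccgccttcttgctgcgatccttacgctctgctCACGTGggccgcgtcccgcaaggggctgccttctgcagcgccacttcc
The share with an E-box was close between members called higher (2 of 7 with a window, 28.6%) and the rest (11 of 40, 27.5%). A match is a run of letters and not a measured site.

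With rmCIRBP, 11 of the 58 members rose and 1 fell at an adjusted p of at most 0.05 (edgeR's quasi-likelihood F test, Benjamini-Hochberg over all 15801 genes tested), while 46 were not called. Below, called means called in this fit unless another tool or setting is named. Among all genes tested 6.74% were called higher and 4.77% lower (1065 and 753 genes; with upper quartile scaling 925 and 1022). Among the called members, the largest increases were Rrp12 (2.38-fold), a factor of small subunit maturation and export, Nol10 (1.97-fold), of the small subunit processome, and Pno1 (1.79-fold), of the pre-40S particle. The gene that fell was Nop53, a large subunit factor, to 0.684 of its PBS level. The other risers were Polr1a, Polr1b, Fbl, Rrp9, Utp4, Nol6, Bop1 and Nol9. Fitted log2 fold changes were positive in 45 members and negative in 13, with a median of 0.37 against -0.01 over all genes tested. Values did not overlap between the groups in 33 members, 30 of them higher with rmCIRBP (17.5% of all genes tested) and 3 lower (17.1% of all genes), namely Nop53, Polr1c and Nol3.

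**Figure D1:**
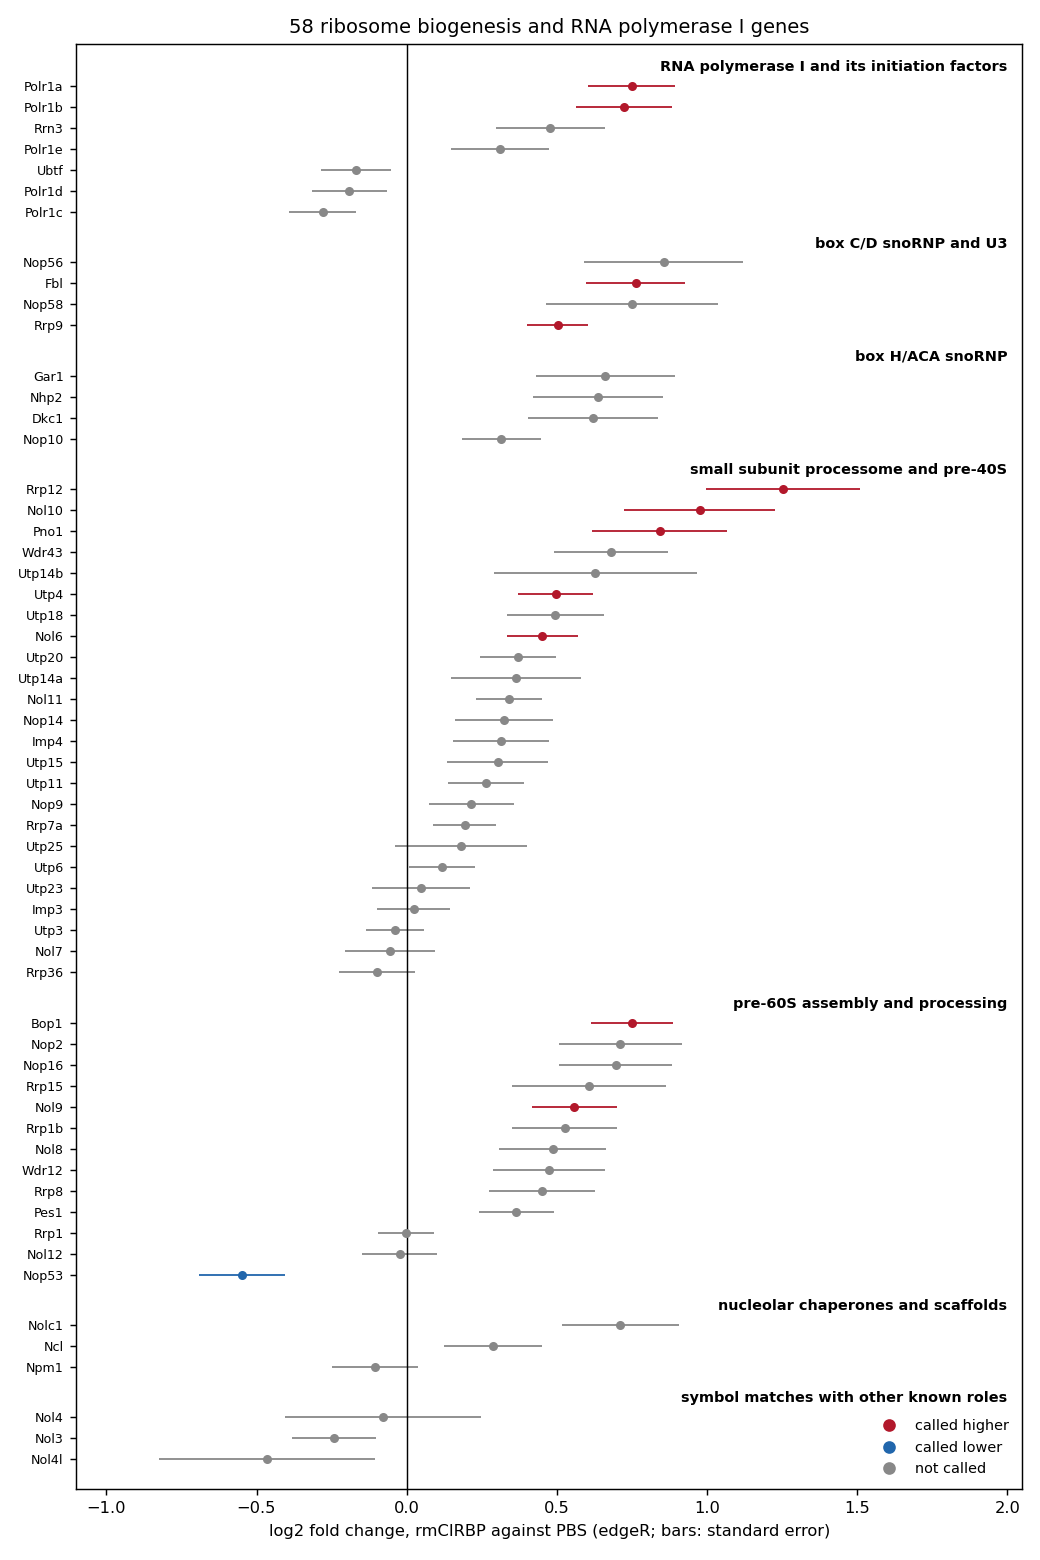
Fitted log2 fold change of each of the 58 members, rmCIRBP against PBS, with its standard error as a bar, grouped by role and coloured by call (adjusted p of at most 0.05). Points right of 0 are higher with rmCIRBP: 45 of the 58, of which 11 were called, while Nop53 was the 1 member called lower.

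The calls depended on which libraries entered the fit. Leaving out 1 library at a time, members called higher numbered 11 without PBS 1 (8% of all genes tested were called higher there), 0 without PBS 2 (3.17%), 0 without PBS 3 (3.6%), 1 without rmCIRBP 1 (3.32%), 5 without rmCIRBP 2 (6.24%; the 5 are 8.62% of the members, near that background) and 10 without rmCIRBP 3 (5.17%). An unadjusted p under 0.05 was found for 33 members with all libraries (56.9%, against 28.8% of all genes tested), 25 without PBS 2 (43.1% against 21.4%) and 20 without PBS 3 (34.5% against 20.96%). None of the 12 called members kept its call in all 6 of these fits. On all libraries, DESeq2 called 16 members higher (9.15% of all genes), and edgeR without a filter on low counts called 19 (5.47%). The 19 include the 16, with Nop58, Nhp2 and Dkc1 besides.

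RNA polymerase I itself was represented by 7 members, of which both large subunits rose. Polr1a encodes the largest, catalytic subunit (ENSMUSG00000049553, GRCm38 chr6:71909053-71984935, + strand). Its level was 30.3, 32.1 and 30.4 CPM in PBS libraries 1, 2 and 3 and 48.0, 63.2 and 44.6 CPM in rmCIRBP libraries 1, 2 and 3. The PBS values lay within 2 CPM of each other and every rmCIRBP value was higher, most of all in rmCIRBP 2; on the log2 scale the difference was 0.75 ± 0.15 (fold change ± SE, here and for later genes; edgeR adjusted p = 0.0166). Polr1b, the second-largest subunit (ENSMUSG00000027395, GRCm38 chr2:129100995-129126594, + strand), was at 13.6, 13.2 and 11.7 CPM with PBS and 21.9, 24.0 and 17.6 CPM with rmCIRBP, with no overlap (0.72 ± 0.16, edgeR adjusted p = 0.0262). Polr1a kept its call in 4 of the 6 leave-one-out fits and Polr1b in 2.

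The other members of this group were not called. Rrn3, the initiation factor that responds to growth signals, was at 50.8, 39.5 and 37.5 CPM with PBS and 52.4, 74.0 and 51.4 CPM with rmCIRBP, without overlap (0.48 ± 0.18, edgeR adjusted p = 0.128). Polr1c and Polr1d encode the subunit pair that RNA polymerase I shares with RNA polymerase III. Polr1c was at 35.2, 33.5 and 33.1 CPM with PBS and at 29.4, 25.1 and 29.3 CPM with rmCIRBP, each rmCIRBP value below each PBS value (log2 fold change -0.28 ± 0.11, edgeR adjusted p = 0.146). Polr1d overlapped between the groups, with 57.9 ± 7.15 CPM (SD) against 50.7 ± 4.34 CPM. Ubtf, the promoter factor, also overlapped, at 157 ± 19.6 CPM with PBS and 140.1 ± 3.98 CPM with rmCIRBP. Polr1e, a subunit of RNA polymerase I alone, was at 8.83 ± 0.807 CPM against 11.0 ± 0.826 CPM (edgeR adjusted p = 0.252).

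Of the box C/D proteins and the U3 protein Rrp9, 2 of 4 rose, and all 4 had positive fold changes. Among all genes tested 6.74% were called higher and 49.2% had positive fold changes. Fbl, fibrillarin, is the methyltransferase of box C/D particles (ENSMUSG00000046865, GRCm38 chr7:28169710-28179269, + strand). It was at 28.6, 27.5 and 23.1 CPM with PBS and 42.6, 54.6 and 37.0 CPM with rmCIRBP, the lowest rmCIRBP library lying above the highest PBS library (0.76 ± 0.17, edgeR adjusted p = 0.025). Across the 6 libraries Fbl had 2864 counts. A stretch of 690 bases of a Tulp4 transcript model and a processed pseudogene, Gm5812, match Fbl transcripts at 99.6% and 96.8% identity. The whole Tulp4 gene had 21566 counts and Gm5812 had 661, and how reads with several matches were counted is not given in the sources used here, so its level is uncertain. Rrp9, which binds U3 (ENSMUSG00000041506, GRCm38 chr9:106475963-106485424, + strand), was at 32.4, 34.3 and 36.0 CPM with PBS and 49.0, 45.6 and 50.8 CPM with rmCIRBP (0.50 ± 0.10, edgeR adjusted p = 0.0193). Its pattern differed from Fbl in that rmCIRBP 2 was the lowest of the 3 treated libraries. Nop56, a core protein of the particle, had a larger fold change than Rrp9, missed the threshold and was called higher by DESeq2, at 51.6, 37.0 and 28.3 CPM with PBS and 63.3, 94.4 and 53.9 CPM with rmCIRBP (0.86 ± 0.26, edgeR adjusted p = 0.076). Its partner Nop58 overlapped between groups (45.6 ± 15.8 CPM against 76.5 ± 24.2 CPM, edgeR adjusted p = 0.131).

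The RNA of all 4 box H/ACA proteins was higher in every rmCIRBP library than in any PBS library, as in 17.5% of all genes tested. On all libraries, none was called by edgeR with the low-count filter, DESeq2 or limma voom. The unadjusted p in that edgeR fit was under 0.05 for 4 of 4, against 28.8% of all genes tested. Without the filter, edgeR called Nhp2 and Dkc1 higher (5.47% of all genes). With the filter but without rmCIRBP 3, it called Gar1 higher (5.17% of all genes). Dkc1, dyskerin, is the pseudouridine synthase. It was at 17.8, 17.1 and 12.3 CPM with PBS and 19.97, 30.9 and 21.6 CPM with rmCIRBP (0.62 ± 0.22, edgeR adjusted p = 0.104). Nhp2, an RNA-binding core protein, was nearly level over the PBS libraries at 18.02, 17.8 and 16.8 CPM and reached 20.9, 37.2 and 23.6 CPM with rmCIRBP (0.64 ± 0.22, edgeR adjusted p = 0.098). Gar1, which completes the particle, was at 12.2, 11.9 and 9.35 CPM with PBS and 17.1, 22.9 and 12.8 CPM with rmCIRBP (0.66 ± 0.23, edgeR adjusted p = 0.106). In these 3 genes rmCIRBP 2 was the highest library and the other treated libraries lay nearer the PBS values. Nop10, the smallest protein of the core, had the smallest difference (15.6 ± 0.305 CPM against 19.4 ± 1.82 CPM, edgeR adjusted p = 0.157) and was highest in rmCIRBP 3.

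The small subunit processome and pre-40S factors were the largest group, with 24 members. Of these 5 rose (20.8%, against 6.74% of all genes tested), none fell and 21 had positive fold changes (87.5% against 49.2%). The 5 became 1 with upper quartile scaling and 0 without PBS 2, PBS 3 or rmCIRBP 1. Rrp12 (ENSMUSG00000035049, GRCm38 chr19:41862851-41896173, − strand) was at 10.5, 9.42 and 6.07 CPM with PBS and 19.5, 26.2 and 16.2 CPM with rmCIRBP. The lowest treated library lay above the highest control (1.25 ± 0.26, edgeR adjusted p = 0.0202). Nol10, the counterpart of yeast Enp2 (ENSMUSG00000061458, GRCm38 chr12:17348458-17430095, + strand), was at 15.9, 11.2 and 9.01 CPM with PBS and 22.5, 29.8 and 18.7 CPM with rmCIRBP (0.98 ± 0.25, edgeR adjusted p = 0.0446). Pno1, the partner of the endonuclease Nob1 (ENSMUSG00000020116, GRCm38 chr11:17203198-17211568, − strand), was at 17.9, 12.4 and 15.9 CPM with PBS and 22.5, 36.6 and 23.7 CPM with rmCIRBP (0.84 ± 0.22, edgeR adjusted p = 0.0491). Both had their highest value in rmCIRBP 2, and Pno1 lost its call in each of the 6 leave-one-out fits.

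Utp4, or cirhin, belongs to the complex that binds the nascent precursor first (ENSMUSG00000041438, GRCm38 chr8:106893636-106923088, + strand). Its PBS libraries were the tightest of the called members, at 28.4, 28.6 and 28.3 CPM, and its rmCIRBP libraries were at 35.7, 46.4 and 38.1 CPM (0.50 ± 0.13, edgeR adjusted p = 0.042). Nol6, the counterpart of yeast Utp22 (ENSMUSG00000028430, GRCm38 chr4:41114427-41124455, − strand), was at 36.3, 34.4 and 35.4 CPM with PBS and 46.7, 55.1 and 43.3 CPM with rmCIRBP (0.45 ± 0.12, edgeR adjusted p = 0.047). These were the smaller changes of the group, 1.41-fold and 1.37-fold, and Utp4 lost its call in each of the 6 leave-one-out fits and Nol6 in 5 of them.

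Among the 19 members of this group that were not called, Wdr43, the counterpart of yeast Utp5, came nearest the threshold and was called higher by DESeq2 (35.1 ± 6.10 CPM with PBS, 56.2 ± 13.0 CPM with rmCIRBP, edgeR adjusted p = 0.0569). Nol11, which vertebrates have in the same complex as Utp4, was at 26.7 ± 1.94 CPM against 33.7 ± 1.53 CPM without overlap (edgeR adjusted p = 0.0866), and Utp18 and Utp20 also did not overlap (edgeR adjusted p = 0.0902 and 0.102). Some core factors were nearly level: the U3 particle protein Imp3 was at 28.1 ± 1.44 CPM against 28.5 ± 3.06 CPM, and Utp3 at 43.5 ± 2.04 CPM against 42.3 ± 1.19 CPM. Imp4, which sits beside Imp3 in the particle, was at 26.1 ± 1.77 CPM against 32.4 ± 6.71 CPM (edgeR adjusted p = 0.239). The remaining members, Nop9, Nop14, Nol7, Rrp7a, Rrp36, Utp6, Utp11, Utp14a, Utp14b, Utp15, Utp23 and Utp25, overlapped between the groups, with log2 fold changes from -0.10 (Rrp36) to 0.63 (Utp14b, the least abundant at 2.90 ± 0.649 CPM with PBS).

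**Figure D2:**
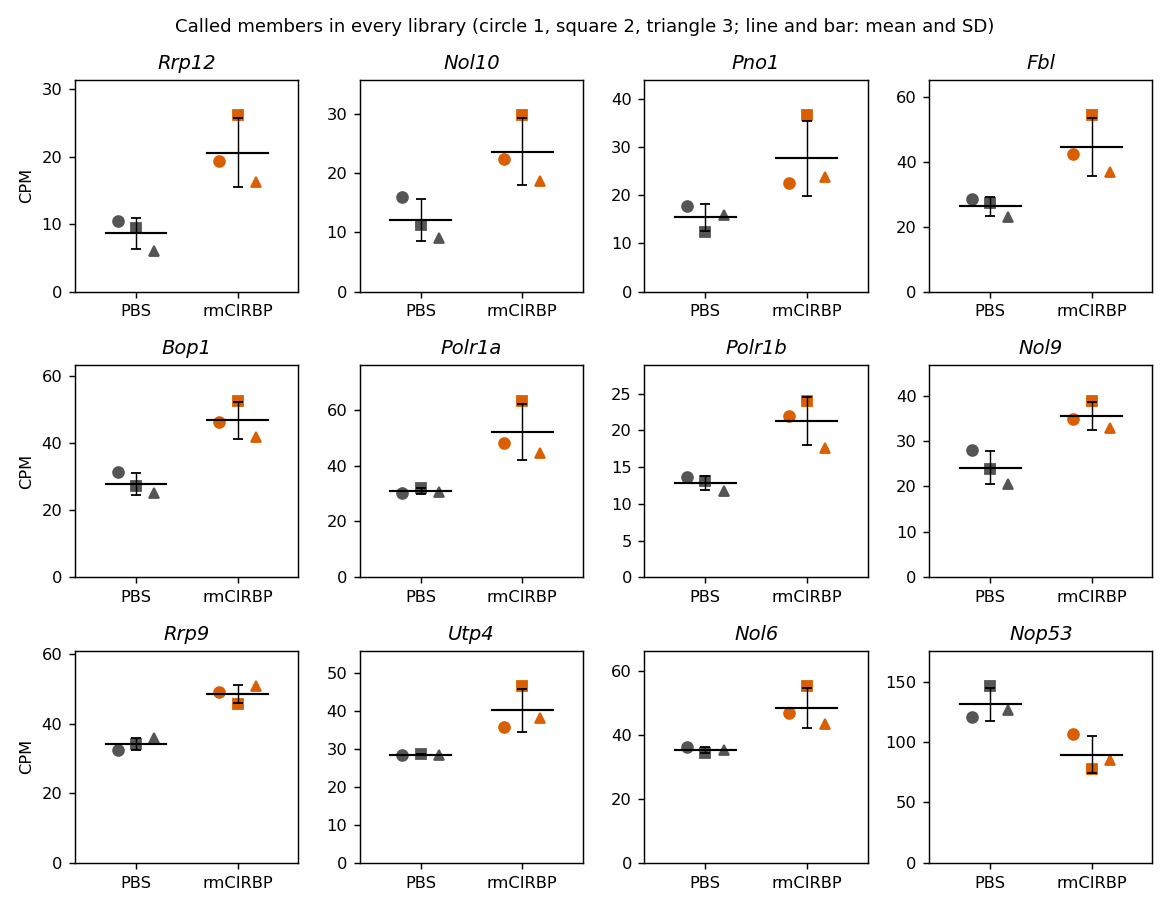
Level in CPM of the 12 called members in every library, with PBS in grey and rmCIRBP in orange, the library number given by the symbol, and mean and SD as line and bar. The groups do not overlap in any panel, rmCIRBP 2 (square) is the highest treated library in 10 of the 11 genes that rose, and Nop53 runs the other way.

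Of the 13 factors of the large subunit, 2 rose and 1 fell (15.4% higher, where 6.74% of all genes tested were called higher and 4.77% lower). Bop1 forms with Pes1 and Wdr12 a complex needed for maturation of the large subunit RNAs (ENSMUSG00000022557, GRCm38 chr15:76452989-76477277, − strand). It had the smallest adjusted p of all members, at 31.5, 27.1 and 25.05 CPM with PBS and 46.2, 52.7 and 41.7 CPM with rmCIRBP (0.75 ± 0.14, edgeR adjusted p = 0.0125). Its partners were not called: Pes1 was at 47.6 ± 2.21 CPM with PBS and 61.4 ± 9.09 CPM with rmCIRBP without overlap (edgeR adjusted p = 0.101), and Wdr12 overlapped at 17.3 ± 2.76 CPM against 24.1 ± 4.87 CPM. Whether the 3 partners differ from each other in response was not tested. Nol9, an RNA kinase of large subunit processing (ENSMUSG00000028948, GRCm38 chr4:152039321-152061494, + strand), was at 28.0, 23.9 and 20.6 CPM with PBS and 34.9, 38.9 and 32.9 CPM with rmCIRBP (0.56 ± 0.14, edgeR adjusted p = 0.0428).

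Nop53, which brings the RNA helicase Mtrex and the exosome to the large subunit precursor, was the exception (ENSMUSG00000041560, GRCm38 chr7:15936183-15946074, − strand). It was at 121, 146 and 127 CPM with PBS and 106, 77.8 and 84.8 CPM with rmCIRBP, with rmCIRBP 2 the lowest library and no overlap (log2 fold change -0.55 ± 0.14, edgeR adjusted p = 0.0462). It kept its call in 1 of the 6 leave-one-out fits, with adjusted p from 0.0442 to 0.163. Mtrex itself, which is not a member, was at 135, 117 and 125 CPM with PBS and 85.8, 105 and 86.8 CPM with rmCIRBP (-0.44 ± 0.12, edgeR adjusted p = 0.053). It was called lower by DESeq2 (adjusted p = 0.0219), with upper quartile or library size scaling, and without rmCIRBP 2.

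Most of the other large subunit members had positive fold changes and were not called by edgeR. Nop16 and the RNA methyltransferase Nop2 lay closest to the threshold and were called higher by DESeq2 (edgeR adjusted p = 0.0522 and 0.0634), at 13.7 ± 0.939 and 30.5 ± 3.00 CPM with PBS and 22.2 ± 5.38 and 49.95 ± 15.2 CPM with rmCIRBP. Rrp1b, Nol8 and Rrp15 also did not overlap between groups, while Rrp8, a methyltransferase, did. Rrp1, an abundant factor, and Nol12 were level. Rrp1 was at 135 ± 5.64 CPM with PBS and 135 ± 1.39 CPM with rmCIRBP (log2 fold change -0.00 ± 0.09), although its relative Rrp1b was at 14.1 ± 1.93 against 20.3 ± 3.37 CPM (edgeR adjusted p = 0.0915). Nol12 was at 23.1 ± 2.07 CPM with PBS and 22.8 ± 1.58 CPM with rmCIRBP.

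None of the 3 abundant or scaffold proteins of the nucleolus was called by edgeR (unadjusted p under 0.05 for 1, Nolc1, which DESeq2, and edgeR without the low-count filter, called higher). Nolc1, which carries small nucleolar particles, was at 38.4, 36.5 and 26.5 CPM with PBS and 50.6, 69.1 and 46.4 CPM with rmCIRBP, without overlap (0.71 ± 0.19, edgeR adjusted p = 0.0535). Ncl, nucleolin, stood out in rmCIRBP 2 alone: it was at 321, 295 and 298 CPM with PBS and 333, 466 and 316 CPM with rmCIRBP (0.29 ± 0.16, edgeR adjusted p = 0.289). Npm1, nucleophosmin, had 419.7, 409 and 389.9 CPM with PBS and 377, 439 and 317 CPM with rmCIRBP, which overlapped (-0.11 ± 0.14, edgeR adjusted p = 0.668). It has 4 processed pseudogenes of at least 95% identity, which together held 4.92% as many counts.

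The symbol rule also brings in Nol3, Nol4 and Nol4l, which share the name but not the process. Nol3, a repressor of apoptosis, was at 24.7, 24.3 and 31.6 CPM with PBS and 23.7, 21.5 and 23.0 CPM with rmCIRBP (-0.24 ± 0.14, edgeR adjusted p = 0.292). Its treated values were all lower, but 48.2% of its exonic length overlaps an opposite-strand gene, and reads of the strands cannot be told apart without a stated strand setting. Nol4l and Nol4 were low and overlapped: Nol4l was at 3.74, 4.55 and 4.23 CPM with PBS and 3.74, 1.52 and 3.81 CPM with rmCIRBP, and Nol4 at 3.16, 3.82 and 4.09 CPM and 2.42, 2.96 and 5.12 CPM. Without these 3 genes, the median log2 fold change of the remaining 55 was 0.45.

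Levels between genes were compared as mean CPM per kilobase of exonic length over the 6 libraries. Exonic length took in every annotated exon of a gene, used in these cells or not (10188 bases for Ncl, 3337 for Rrp1). The order therefore depends on the annotation. Npm1 was the highest at 147, followed by Rrp1 (40.4), Ncl (33.2), Imp3 (30.6) and Nop53 (28.7). At the other end were Nol4l (0.396), Utp14b (0.481) and Nol4 (0.632). The polymerase subunits differed on this scale, from 2.54 for Polr1e and 2.93 for Polr1b to 17.8 for Polr1d. The members together took 0.254% ± 0.0078 of all counts with PBS and 0.291% ± 0.0428 with rmCIRBP (SD, n = 3), and rmCIRBP 2 set the wider spread, at 0.339%.

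The library rmCIRBP 2 stood apart for these genes. It was the highest of all 6 libraries in 42 of the 58 members (72.4%), against 23.7% of all genes tested. Relative to the PBS mean, the median member was 0.06, -0.00 and -0.06 log2 units off in PBS 1, 2 and 3, and 0.27, 0.63 and 0.23 higher in rmCIRBP 1, 2 and 3. All 3 treated libraries were therefore above all 3 controls at the median, with rmCIRBP 2 furthest. Among the member groups, the box C/D group had the widest range over libraries, from -0.30 in PBS 3 to 1.15 in rmCIRBP 2. Without rmCIRBP 2 the median log2 fold change of the members was 0.28.

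**Figure D3:**
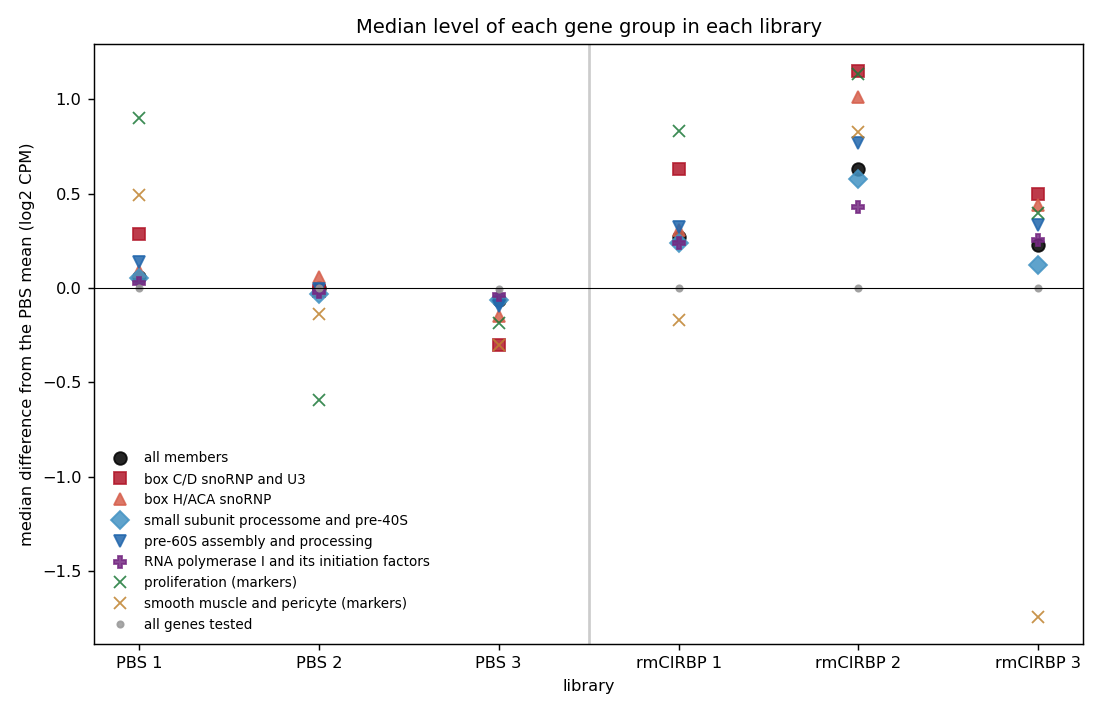
Median difference from the PBS mean, in log2 CPM, of the member groups, of 2 marker lists and of all genes tested, for each library. The 5 member groups drawn lie highest in rmCIRBP 2 (0.63 over all members), where the proliferation and the smooth muscle markers are also highest (1.13 and 0.83).

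At the median, markers of dividing cells and of smooth muscle were, like the members, highest in rmCIRBP 2 and, among controls, in PBS 1. In other libraries they differed from the members. At the median, proliferation markers in PBS 1 (0.90 log2 units) lay above rmCIRBP 3 (0.40) and near rmCIRBP 1 (0.83). Between PBS 1 and rmCIRBP 1 single markers went either way (Pcna 49.7 and 55.9 CPM, Mki67 84.8 and 69.7 CPM). Smooth muscle markers in rmCIRBP 1 and 3 lay below the PBS mean (-0.17 and -1.74 log2 units). Of 10 proliferation genes, 10 had positive fold changes (49.2% of all genes tested) and edgeR called 0 (6.74% of all genes higher). In that fit 3 had an unadjusted p under 0.05, against 28.8% of all genes. DESeq2 called 3 higher (9.15% of all genes), edgeR without the low-count filter 3 (5.47%) and limma voom 0 (6.43%). Without PBS 1, where 8% of all genes were called higher, edgeR called 7 of the 10 higher. Their median difference from the PBS mean was 0.90, -0.59 and -0.18 log2 units in PBS 1, 2 and 3 and 0.83, 1.13 and 0.40 in rmCIRBP 1, 2 and 3, and their summed level ranged from 130 to 341 CPM with PBS and from 248 to 418 CPM with rmCIRBP. PBS 1, the control with the highest proliferation markers, was also the highest control in 33 of the 58 members (56.9%, against 38.0% of all genes tested). The summed level of 7 smooth muscle and pericyte markers ranged from 508 to 1188 CPM with PBS and from 200 to 1788 CPM with rmCIRBP, highest in rmCIRBP 2 and lowest in rmCIRBP 3, and none of the 7 was at 0. Their part in the result was not tested. Without PBS 1 and rmCIRBP 2 together, a setting added after the data were seen, 15 members were called higher (10.4% of all genes tested) and 0 lower, and the members' median log2 fold change was 0.34. In bulk RNA, a change in the number of cells of a kind and a change of RNA per cell cannot be told apart.

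Other genes of the same pathway, listed by role, were examined in the same fit. The lists were made with earlier results of these data known, so their counts are a description and not support. Of 114 tested, 24 rose and none fell by edgeR (21.1% higher, against 6.74% of all genes), 103 had positive fold changes, and the median was 0.34. That count of 24 was 3 without PBS 2 (2.63%, against 3.17% of all genes), 5 without PBS 3 (4.39% against 3.6%), 6 without rmCIRBP 1 (5.26% against 3.32%) and 11 without rmCIRBP 2 (9.65% against 6.24%). Among small subunit factors 8 of 32 rose and among large subunit factors 16 of 46. In the small subunit list, Wdr36, a processome protein, was at 45.3, 38.4 and 36.6 CPM with PBS and 65.6, 77.8 and 61.5 CPM with rmCIRBP (0.77 ± 0.13, edgeR adjusted p = 0.0103). Rcl1, of the same particle, was at 9.88, 7.80 and 9.08 CPM with PBS and 22.4, 31.3 and 15.7 CPM with rmCIRBP (1.37 ± 0.26, edgeR adjusted p = 0.0141). Pwp2, a scaffold of the processome, followed (edgeR adjusted p = 0.033).

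The 3 large subunit factors of this list with the smallest p were Ftsj3, Rbm28 and Rrs1. Ftsj3, a methyltransferase, was at 43.2, 37.4 and 37.1 CPM with PBS and 61.6, 70.9 and 66.7 CPM with rmCIRBP (0.76 ± 0.11, edgeR adjusted p = 0.00517). Rbm28 was at 59.1, 52.1 and 45.7 CPM with PBS and at 84.8, 86.5 and 87.2 CPM with rmCIRBP (0.72 ± 0.11, edgeR adjusted p = 0.0074). Rrs1, which helps bring the small 5S particle into the large subunit, was at 47.7, 43.7 and 36.1 CPM with PBS and 69.1, 100.4 and 82.0 CPM with rmCIRBP (0.98 ± 0.16, edgeR adjusted p = 0.00937). These 3 kept their calls in all 6 leave-one-out fits, as no member did. The 3 treated libraries of Rbm28 were within 3 CPM of each other.

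In the lists around these, edgeR with the low-count filter called no gene, where it called 6.74% of all genes tested higher. Of all genes tested 28.8% had an unadjusted p under 0.05 in that fit. DESeq2 called 9.15% of all genes higher and 1172 lower, and edgeR without the filter called 5.47% higher. Of 12 further RNA polymerase I and promoter-complex genes, 0 were called by edgeR (1 at an unadjusted p under 0.05, Twistnb, which DESeq2 called higher), with a median log2 fold change of 0.08. Twistnb, the older symbol of Polr1f, was at 15.2, 13.0 and 13.5 CPM with PBS and 19.3, 21.1 and 17.9 CPM with rmCIRBP (0.48 ± 0.14, edgeR adjusted p = 0.0613), followed by Taf1d, of the promoter complex, and the shared subunit Polr2k (edgeR adjusted p = 0.32 and 0.441). Of 10 assembly factors of small nucleolar particles 0 were called (5 at an unadjusted p under 0.05; DESeq2, and edgeR without the filter, called 2 higher), the nearest being the helicases Ruvbl1 and Ruvbl2 and the dyskerin chaperone Shq1 (edgeR adjusted p = 0.0604, 0.0665 and 0.0915). Of 14 nuclear exosome genes 0 were called (4 at an unadjusted p under 0.05; DESeq2 called Mtrex lower), and the nearest after Mtrex were the exonucleases Exosc10 and Dis3 (edgeR adjusted p = 0.1 and 0.147).

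**Figure D4:**
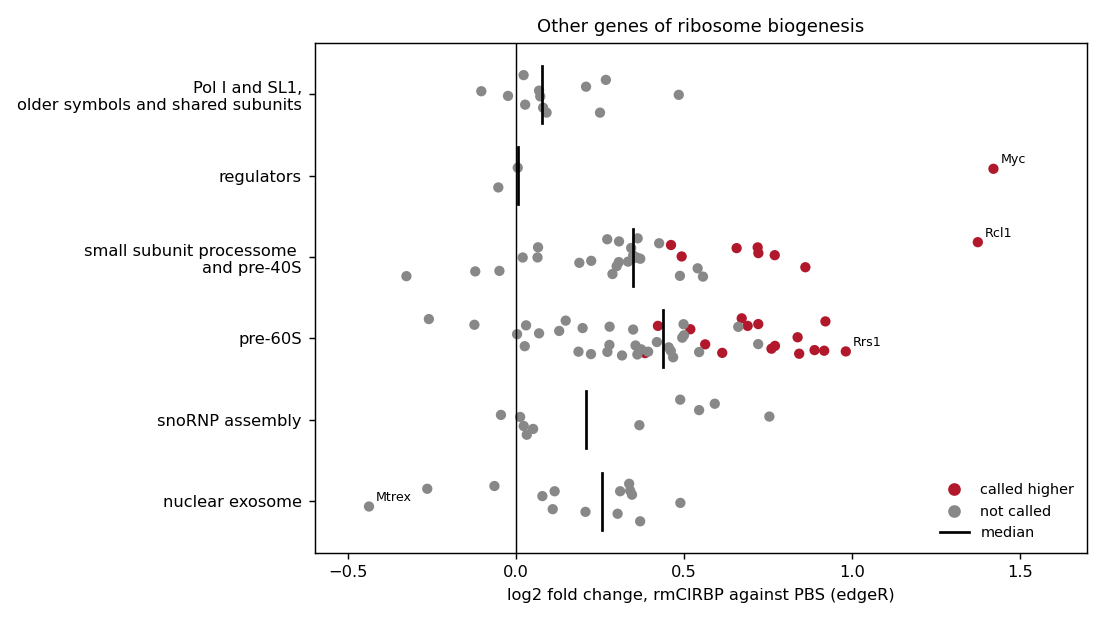
Fitted log2 fold change, rmCIRBP against PBS, of genes of ribosome biogenesis that are not among the 58, and of the regulators Myc, Max and Ttf1, by list, with the median as a line and calls in red. Red points appear in the small subunit list (8), the large subunit list (16) and for Myc.

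Of the regulators, Myc rose. It was at 22.6, 16.6 and 11.4 CPM with PBS and 37.1, 62.7 and 35.3 CPM with rmCIRBP (1.42 ± 0.30, edgeR adjusted p = 0.0224), highest in rmCIRBP 2 and, among controls, in PBS 1. The call was lost without PBS 2 (adjusted p = 0.0908) or PBS 3 (0.0729). Its partner Max was level at 76.3, 77.8 and 72.8 CPM and 72.5, 70.6 and 75.5 CPM (edgeR adjusted p = 0.734), and so was Ttf1, the terminator of RNA polymerase I, at 25.1, 25.3 and 25.3 CPM and 26.1, 25.4 and 24.4 CPM (edgeR adjusted p = 0.982). Mycn had 10, 8 and 9 counts in PBS 1, 2 and 3 and 5, 4 and 5 in rmCIRBP 1, 2 and 3, and was not tested.

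The symbol rule did not read annotation terms or genome positions, but many of its symbols stand for nucleolar proteins. A high nucleolus share was therefore built into the choice. In the deposited Gene Ontology terms, 43 of the 58 (74.1%) carried the exact term nucleolus, against 3.56% of all genes tested. Npm1, Polr1a and Ubtf were among the members without the exact term. Small nucleolar RNA genes lay inside 6 members (10.3%), against 1.58% of all genes tested, 17 in all: 5 in Nop56, 4 in Nop58, 3 each in Ncl and Wdr43, and 1 each in Dkc1 and Nop53. Of these 6 hosts, Nop53 was called in the edgeR fit of all libraries with the low-count filter and the other 5 were not. DESeq2 also called Nop56 and Wdr43 higher, and edgeR without the filter called these and Nop58 and Dkc1. The fold change of Nop53 was negative where the other hosts had positive values from 0.29 (Ncl) to 0.86 (Nop56). The libraries were polyA-selected, so the small nucleolar RNAs themselves are not measured by these counts. Besides Fbl and Npm1, near-identical copies of at least 300 bases at 95% identity were found for Nop56, Imp3, Pes1, Rrp7a and Wdr12, whose copies held from 0.0601% (Wdr12) to 7.68% (Imp3) as many counts as the member.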

How the data were processed

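The data are whole-number read counts per gene, deposited by the authors as 1 table with 1 column for each of 6 libraries. RNA was selected for polyA tails before library construction (TruSeq mRNA), per the labels' protocols. The submitters' processing notes name featureCounts, DESeq2, R 4.1.2 and the build GRCm38 (mm10). Which aligner, annotation release, strand setting and rule for reads with several matches produced the counts is not given in the sources used here. Columns were matched to samples by group and number, leaving 0 unmapped, and totals ran from 12105584 to 14262375 counts.

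The analysis used edgeR 4.0.16 in R 4.3.3: filterByExpr by group kept 15801 genes, scaling was by TMM, and treatment was tested two-sided with the quasi-likelihood F test without covariates. Adjusted p-values (Benjamini-Hochberg over all 15801 genes) were called at 0.05. CPM are per effective library size. The standard error of a log2 fold change is its size over the square root of its F statistic. Alternatives used DESeq2 1.42.0, limma 3.58.1 (voom), other scalings and filters, a replicate block and leave-one-out fits, and the code was tested on simulated data. GENCODE M21 gene models (GRCm38) gave exonic lengths and small nucleolar RNA hosts, blastn 2.17.0 gave near-identical copies, and RefSeq (GRCm38.p6) gave promoter windows. Protein sequences were not used here. Of the other pathway symbols, 3 were older synonyms absent from the table.

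The members and lists were chosen with earlier results of these data known. Named with library values are every called member, up to 3 members per role and up to 3 genes per pathway list with the smallest p, and 4 regulators, whatever their values.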

Additional observations from a re-analysis of the deposited data

How the results depend on the processing

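The members' median log2 fold change was 0.28 to 0.47 over the 15 alternatives, and 54 to 58 of the 58 members kept the sign of their fold change. The members that changed sign were not called in either fit. The 12 called members have groups that do not overlap, so their direction could not turn when 1 library was left out. Against 11 members called higher and 1 lower, upper quartile scaling gave 6 higher, testing every gene with a count gave 19, and leave-one-out fits gave 0 to 11 higher and 0 to 1 lower. Of the other pathway genes, 24 were called higher: leave-one-out fits gave 3 to 22, and 0 to 1 lower, while upper quartile scaling, library size scaling and DESeq2 each called 1 lower. Over all genes, 1065 were called higher and 753 lower: leave-one-out fits gave 513 to 1299 higher and 203 to 845 lower, DESeq2 gave 1172 lower, and upper quartile scaling turned the balance, with 925 higher and 1022 lower. Without PBS 1 and rmCIRBP 2 together, chosen after seeing the data, 0 members and 2 other pathway genes were called lower, and 1669 genes were higher and 1133 lower. With the replicate number as a block, 7 members (12.1%) were called higher and 0 lower, and 12 other pathway genes (10.5%) higher. Over all genes that fit called 792 higher (5.01%) and 466 lower. Replicate numbers showed no steady pairing: correlations of same-numbered deviations were -0.107, -0.169 and 0.246, and only PBS 3 correlated best with its own number. With 3 libraries a group, these values cannot exclude a shared origin of same-numbered libraries. The causes of these shifts were not tested. At these depths 3 counts correspond to 0.210 to 0.248 CPM, for counting error only, and 3 libraries a group limit the precision.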
